A study of Mus musculus with 8 samples.

Results

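The brains of male ICR mice that had received rosemary extract (RE) at either of 2 doses and had undergone the tail suspension test (TST) were compared with the brains of mice that had received water and no TST. The comparison used 6 of the 8 arrays of the study: the 4 extract arrays (2 of 10 mg/kg RE-administered with TST, 2 of 100 mg/kg-administered with TST) against the 2 arrays of water-administered without TST. The 2 arrays of water-administered with TST were left out. ICR is an outbred strain, and the mice were 8 weeks old when bought, were kept for 1 week before the experiment and were treated by mouth for 7 days, with 7 mice assigned to each group. The TST suspends a mouse by the tail to score how long it stays immobile, and is at the same time a brief stress. Every extract array came from stressed mice and both water arrays from unstressed mice, so extract and TST cannot be told apart here. The tissue label reads brain (limbic system), while another field reads hippocampus. The titles give 100 mg/kg for the high dose and the source name gives 50 mg/kg; it is called high-dose RE below. A further field calls unstressed water the positive control and stressed water the negative control; the grouping follows the titles. Whether the pair of RNA samples in a group represents single mice or pooled ones is not given, so the spread behind each p-value is that between 2 RNA samples and may be technical. In total 19505 named genes were described, 1 row per gene, out of 22206 rows on the array.

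Several gene groups are informative for such a comparison. Immediate early genes such as Arc, Fos, Egr1 and the Nr4a family are transcribed in neurons shortly after strong synaptic input, and novelty, handling and restraint are known to induce them in the limbic system. Glucocorticoids released in stress act through the receptor Nr3c1 on targets such as Fkbp5, Sgk1 and Per1. A dissected brain piece also carries neurons of several regions, each with its own marker genes, and in bulk RNA fewer cells of a type and less RNA per cell cannot be told apart.

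Both extract doses together were higher than unstressed water in Arc, Nr4a1, Nr4a3 and Ccn1, which are induced by activity or growth signals, and in Tcf7l2, Prkcd, Lef1, Synpo2, Plekhg1 and Rgs16, which mark thalamic neurons. They were lower in Gabra6, Cbln3, Pcp2 and other cerebellar genes, in Calb1, Calb2 and Cnr1, and in striatal genes such as Penk. No gene passed an adjusted p of 0.05 (limma with Benjamini-Hochberg adjustment over all rows), and the lowest adjusted p was 0.913. The study's own threshold, a fold above 1.2 with an unadjusted p below 0.05, was passed by 1027 genes or 5.27% of those tested, 599 higher (3.07%) and 428 lower (2.19%). Of the table's 22206 rows, 1193 had an unadjusted p below 0.05, and 5% of the rows would be 1110.3. These shares lie near 5%, and the genes below are therefore described by their array values. A gene is called past the threshold where it met the study's threshold, and higher or lower says only where the means lay. Where a gene was named for the gap between extract and water arrays, its lack of overlap follows from that choice. A value is on the deposited log2 scale, and a difference is the mean of the extract arrays minus the mean of the water arrays with its standard error (SE) from limma.

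The result depended on single arrays, above all on the 2 water arrays. Of the 1027 genes past the threshold, 343 were still past it without unstressed water 1 and 423 without unstressed water 2. The count was between 507 and 805 when 1 extract array was left out. Genes that passed in the full fit and in all 6 of these fits numbered 79 higher (0.405% of all genes) and 33 lower (0.169%). The 4 extract arrays all lay above both water arrays in 1742 genes (8.93%) and all below them in 1212 (6.21%). Correlations among the 6 arrays ran from 0.983 to 0.992. Rows in which the pair of arrays lay over 1 log2 unit apart numbered 727 for unstressed water, 1439 for low-dose RE and 361 for high-dose RE, and no depth or detection call comes with the values. Over all genes the median difference was 0.02, with 10318 higher and 9104 lower.

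**Figure D1:**
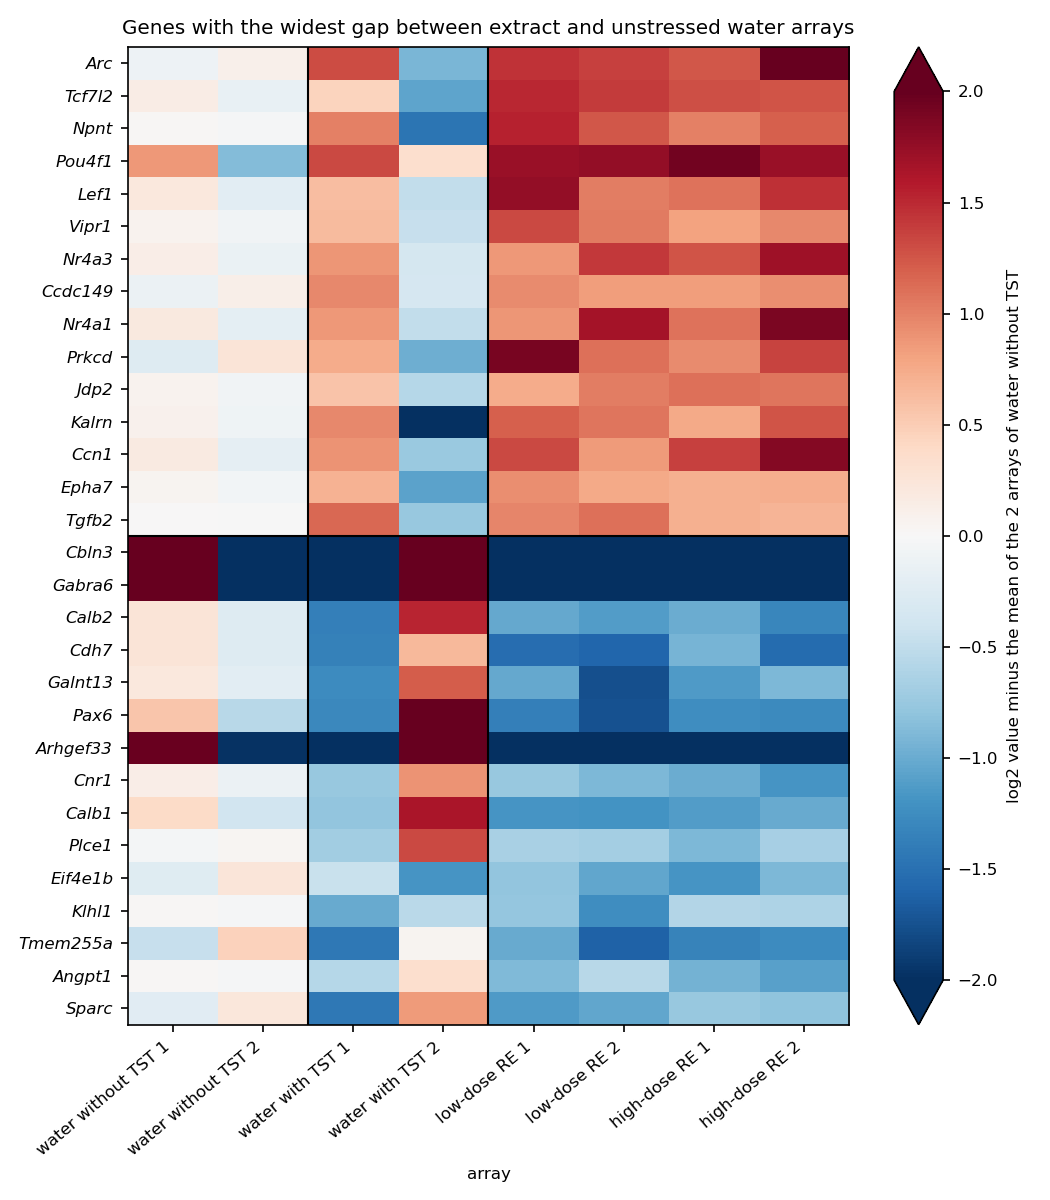
Each row is a gene and each column an array, and colour gives the log2 value minus the mean of the 2 arrays of water without TST, cut at 2 in either direction. The 15 higher and 15 lower genes were chosen for the widest gap between extract and water arrays, so the 4 extract columns are uniform by that choice; the 2 arrays of water with TST took no part in it, and their columns differ from each other.

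Genes that mark thalamic neurons were higher in the extract arrays. Of 16 measured members, 15 had a higher mean and 9 were past the threshold in that direction, while Calb2 was past it in the lower direction. The shares of all genes were 3.07% higher and 2.19% lower. The median difference of the list was 0.60, against 0.02 over all genes, and it was 0.64 without unstressed water 1 and 0.72 without unstressed water 2. On each array, the mean of the list, each gene centred on its 8 arrays, was -0.28 and -0.23 on the water arrays, 0.64 and 0.28 on the low-dose arrays and 0.27 and 0.32 on the high-dose arrays. Low-dose RE 1 was the highest, and the groups did not overlap.

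Tcf7l2, a Wnt-pathway transcription factor that specifies thalamic and habenular neurons, had the smallest p of the named genes. It was at 13.58 and 13.27 in unstressed water, at 14.94 and 14.82 at the low dose and at 14.72 and 14.68 at the high dose. All 4 extract arrays lay above both water arrays, with a difference of 1.36 (SE 0.19). Left-out arrays moved it between 1.21 and 1.52. On the arrays of stressed water it was at 13.87 and 12.37. Lef1, a partner factor of the same pathway, was at 7.34 and 6.92 in water and at 8.88, 8.16, 8.22 and 8.59 in the extract arrays (difference 1.33, SE 0.27). Lef1 kept its side with each array left out, from 1.12 to 1.54. Prkcd, the delta isoform of protein kinase C and a marker of dorsal thalamus, was at 12.75 and 13.28 in water, at 14.92 and 14.12 at the low dose and at 13.96 and 14.36 at the high dose (difference 1.33, SE 0.29). Tcf7l2, Lef1 and Prkcd were all named for wide gaps, so the lack of overlap between extract and water follows from that choice. The choice also favours keeping the threshold with arrays left out.

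The actin-binding gene Synpo2 was at 7.43 and 8.08 in water and at 9.23, 8.68, 8.58 and 8.88 in the extract arrays (1.09, SE 0.26). Plekhg1, a guanine nucleotide exchange factor, was at 11.03 and 11.40 in water and at 11.94 to 12.87 in the extract arrays (1.04, SE 0.27). Rgs16, which shortens G-protein signals, was at 9.48 and 9.29 in water and at 9.96 to 10.58 in the extract arrays (1.00, SE 0.23). These 3 also passed the threshold with each array left out, so 7 of the 16 list members did, Calb2 among them. Slc17a6, the vesicular glutamate transporter of thalamic and other subcortical neurons, was at 11.86 and 12.53 in water and at 12.69 to 13.14 in the extract arrays (0.66, SE 0.25); it lost the threshold without unstressed water 1, low-dose RE 1 or either high-dose array. Cacna1g (0.65) and Ntng1 (0.54) were also past the threshold, but not with each array left out. Gbx2, a thalamic transcription factor mainly of development, was at 7.24 and 7.47 in water and at 7.11 to 7.85 in the extract arrays, and the groups overlapped.

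2 further transcription factors with wide gaps belong to neighbouring territory. Shox2, found in thalamic neurons among others, was at 8.01 and 8.40 in water, at 10.32 and 8.98 at the low dose and at 9.35 and 9.68 at the high dose (1.38, SE 0.36). Pou4f1, which marks the habenula, was at 7.24 and 5.50 in water and at 8.09 to 8.30 in the extract arrays (1.79, SE 0.42). The extract arrays were close together and the water arrays far apart, and the difference was 0.92 without unstressed water 2 and 2.65 without unstressed water 1, past the threshold in both.

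**Figure D2:**
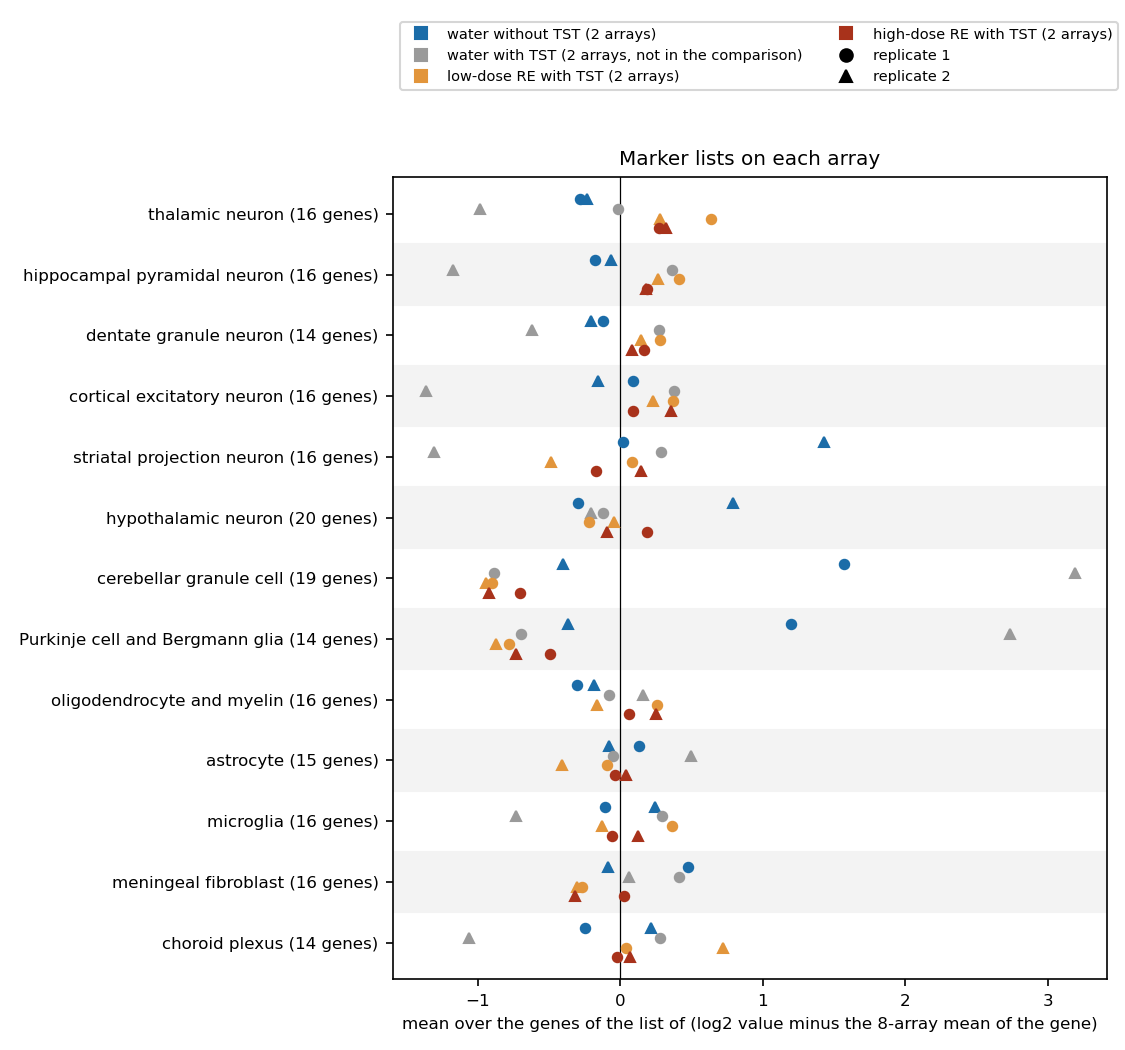
The horizontal axis is the mean over a marker list of the log2 value after each gene was centred on its 8 arrays; colour gives the group and shape the replicate number. Cerebellar lists were highest on water with TST 2 and on water without TST 1, striatal and hypothalamic lists on water without TST 2, while the thalamic list was higher on the 4 extract arrays than on the 2 arrays of water without TST.

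Activity-regulated genes also had higher means in the extract arrays. Of 24 immediate early genes measured, 22 had a higher mean, 8 were past the threshold and 0 were past it in the lower direction. The shares of all genes were 3.07% higher and 2.19% lower. The list median was 0.37, and 0.40 and 0.26 without unstressed water 1 and 2. Its mean per array was -0.20 and -0.22 in unstressed water, 0.16 and 0.18 at the low dose and 0.17 and 0.58 at the high dose, so high-dose RE 2 stood above the other extract arrays. Without that array the list median was 0.28 and 7 members were past the threshold; without unstressed water 1, 4 were. On the 2 arrays of stressed water the list mean was 0.21 and -0.88.

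Arc, a synaptic protein whose transcript follows neuronal activity, was at 8.49 and 8.69 in unstressed water, at 10.03 and 9.96 at the low dose and at 9.83 and 11.43 at the high dose. The lowest extract array was more than 1 log2 unit above the highest water array, and Arc was named for the width of this gap. The difference was 1.72 (SE 0.39), and 1.32 without high-dose RE 2. On the stressed water arrays Arc was at 9.89 and 7.67, 1 of them within the range of the extract arrays and the other below both unstressed arrays.

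The Nr4a orphan nuclear receptors, transcription factors induced by calcium and cAMP, were past the threshold in all 3 members. Nr4a1 was at 9.72 and 9.32 in water, at 10.41 and 11.18 at the low dose and at 10.61 and 11.41 at the high dose (1.38, SE 0.31). Nr4a3 was at 12.01 and 11.74 in water, at 12.74 and 13.29 at the low dose and at 13.13 and 13.57 at the high dose (1.31, SE 0.24). Both were named for wide gaps, so their lack of overlap between extract and water follows from that choice. Both kept the threshold with each array left out, which the choice also favours. Nr4a2 was at 11.31 and 11.57 in water and at 11.87 to 12.12 in the extract arrays (0.54, SE 0.19), and lost the threshold without unstressed water 1 or high-dose RE 1. The 250 bases before the RefSeq start of these 3 genes are shown because they share a sequence feature that the comparison did not use. TGACG, the core of the cAMP response element, and its reverse complement CGTCA are in capitals; matches were sought on both strands and 4 were found in each window. The windows lie at chr15:101266596-101266845 on the plus strand for Nr4a1, chr2:57124004-57124253 on the minus strand for Nr4a2 and chr4:48045055-48045304 on the plus strand for Nr4a3 (RefSeq, GRCm38.p6), each printed 5′ to 3′.
Nr4a1: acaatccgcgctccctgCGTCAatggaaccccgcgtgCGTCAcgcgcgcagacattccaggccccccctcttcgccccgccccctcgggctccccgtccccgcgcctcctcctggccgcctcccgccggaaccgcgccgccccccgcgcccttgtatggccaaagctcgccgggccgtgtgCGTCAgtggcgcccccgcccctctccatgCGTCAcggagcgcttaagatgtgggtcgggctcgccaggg
Nr4a2: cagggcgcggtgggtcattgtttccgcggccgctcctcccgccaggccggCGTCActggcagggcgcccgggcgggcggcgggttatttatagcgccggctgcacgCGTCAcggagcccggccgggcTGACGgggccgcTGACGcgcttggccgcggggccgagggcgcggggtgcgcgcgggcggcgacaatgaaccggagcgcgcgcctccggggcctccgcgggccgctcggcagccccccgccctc
Nr4a3: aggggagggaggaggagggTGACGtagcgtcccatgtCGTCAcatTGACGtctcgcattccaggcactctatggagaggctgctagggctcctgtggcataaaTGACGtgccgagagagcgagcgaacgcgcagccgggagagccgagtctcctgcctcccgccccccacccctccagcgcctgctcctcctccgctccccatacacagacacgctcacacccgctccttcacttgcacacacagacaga
At least 1 match was present in 17.8% of all 32851 promoter windows of the same length, and at least 4 in 45 windows, or 0.137%. Of the 24 immediate early genes, 19 had a window in the table, 15 of these held at least 1 match and 3, the Nr4a genes, held 4. A gene with several windows was counted by its best one, whereas the share of 17.8% is of single windows. The full cAMP response element was in no Nr4a window, and among these genes was found for Btg2 and Maff. The number of 4 was chosen after the sequences had been read. A match is a description and not a binding site.

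Other members were higher with less margin. Egr1, a zinc-finger factor of the immediate early response, was at 12.87 and 13.24 in water, at 13.90 and 13.99 at the low dose and at 13.46 and 14.89 at the high dose. No extract array was as low as water, but the difference of 1.00 (SE 0.37) lost the threshold without either water array or without low-dose RE 2. Fos was at 7.56 and 7.83 in water, at 8.13 and 7.93 at the low dose and at 8.61 and 9.60 at the high dose (0.87, SE 0.29), and lost the threshold without unstressed water 1. Fosl2, a Fos-related subunit of the AP-1 factor, was at 7.01 and 7.43 in water and at 7.87 to 8.35 in the extract arrays (0.89). Bdnf, the neurotrophin transcribed with activity, was at 9.69 and 9.28 in water and at 9.88 to 10.24 in the extract arrays (0.58, SE 0.20), and lost the threshold without unstressed water 2 or high-dose RE 2. Npas4, a neuron-specific immediate early factor, was at 8.67 and 8.55 in water and spread from 8.08 to 9.55 in the extract arrays, a difference of 0.12 with overlapping groups. Fosb (0.03) and Jun (0.09) likewise overlapped.

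Ccn1, a matrix protein of the immediate early class, was at 8.94 and 8.57 in water, at 10.08 and 9.60 at the low dose and at 10.12 and 10.59 at the high dose (1.34, SE 0.24). Dusp6, the phosphatase that dampens ERK, was at 9.44 and 9.90 in water and at 10.38 to 10.74 in the extract arrays (0.90, SE 0.22). Both passed with each array left out, which for Ccn1 the choice by gap also favours. Jdp2, an AP-1 repressor, was at 8.33 and 8.20 in water and at 9.01 to 9.37 in the extract arrays (0.98, SE 0.19). Ptgs2, the inducible cyclooxygenase of excitatory neurons, was at 7.53 and 7.40 in water and at 8.48, 8.46, 8.24 and 8.14 in the extract arrays (0.86, SE 0.18); it is outside the naming rule and was chosen after its values were seen. All 4 extract arrays were above water in each of these genes, which for Ccn1 and Jdp2 follows from their choice by gap. Among 11 dual-specificity phosphatases 2 were past the threshold higher, Dusp6 and Dusp1 (0.68, SE 0.29), and Dusp10 was past it lower (-1.10, SE 0.38). The shares of all genes were 3.07% higher and 2.19% lower. Dusp1 lost the threshold without either water array, low-dose RE 1 or high-dose RE 2, and was at 0.45 in the lowest of these fits. Dusp10 lost it without unstressed water 1, where it was at -0.535, and without high-dose RE 1. Of all arrays Dusp10 was highest on stressed water 2 (11.54), where the cerebellar gene lists were also highest.

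**Figure D3:**
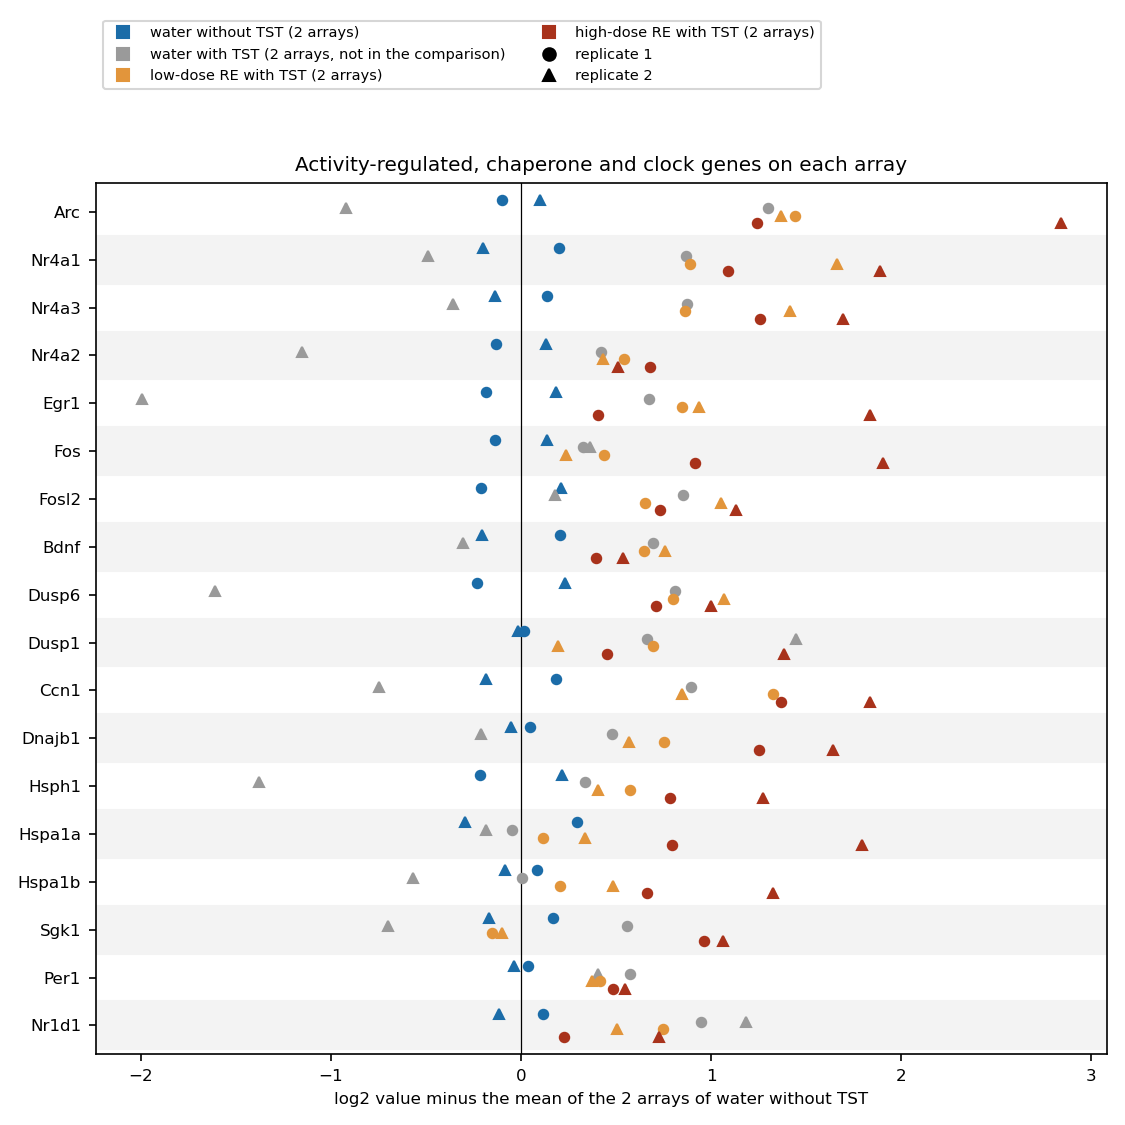
The horizontal axis is the log2 value of a gene minus its mean over the 2 arrays of water without TST, with colour for group and shape for replicate. Arc, Nr4a1, Nr4a3, Ccn1 and Dnajb1 have all 4 extract arrays right of both water arrays, Sgk1 has only the high-dose arrays there, and water with TST 1 often lies among the extract arrays while water with TST 2 often lies left of unstressed water.

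Genes outside these lists completed the set with the widest gaps on the higher side. Npnt, a matrix ligand of integrins, was at 8.75 and 8.71 in water, at 10.27 and 9.97 at the low dose and at 9.73 and 9.92 at the high dose. The water arrays were nearly equal, and the difference of 1.24 (SE 0.19) stayed between 1.17 and 1.32 with left-out arrays. Vipr1, a receptor for vasoactive intestinal peptide, was at 7.28 and 7.15 in water and at 8.02 to 8.54 in the extract arrays (1.03, SE 0.19). Its ligand Vip, a peptide of cortical and hippocampal interneurons, was at 9.25 and 9.14 in water and at 9.85, 10.11, 9.90 and 10.39 in the extract arrays (0.87, SE 0.22). Both genes lay higher on every extract array, which for Vipr1 follows from its choice by gap. Kalrn, an exchange factor of dendritic spines, was at 12.63 and 12.47 in water and at 13.30 to 13.81 in the extract arrays (1.07, SE 0.21). Tgfb2, a growth factor, was at 9.86 and 9.83 in water and at 10.52 to 10.95 in the extract arrays (0.86, SE 0.18). Ccdc149 (0.885) was close to Tgfb2 in size, and each of these genes passed with each array left out. Except for Vip, which was named through its lists, they were chosen for wide gaps. Their lack of overlap follows from that choice, which also favours keeping the threshold with arrays left out.

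7 further genes that passed with each array left out were chosen after their values were seen, and stand for no group. Grm2, a presynaptic metabotropic glutamate receptor, was at 10.71 and 10.67 in water and at 11.49, 11.58, 11.29 and 11.68 in the extract arrays (0.82, SE 0.20). Cckbr, the brain receptor for cholecystokinin, was at 9.43 and 9.18 in water and at 9.82 to 10.25 in the extract arrays (0.83, SE 0.21). Slc6a7, a proline transporter of glutamatergic terminals, was at 8.66 and 9.08 in water and at 9.57 to 9.95 in the extract arrays (0.84, SE 0.21). Dkk3, a secreted protein of the Dickkopf family, was at 12.09 and 11.62 in water and at 12.67 to 12.98 in the extract arrays (0.92, SE 0.22). Adamts4, a protease that cuts matrix proteoglycans, was at 7.35 and 7.28 in water and at 7.92 to 8.37 in the extract arrays (0.86, SE 0.21). On the lower side, Zfp521, a zinc-finger factor, was at 11.99 and 10.04 in water and at 9.17 to 9.55 in the extract arrays, a difference of -1.64 (SE 0.46) in which unstressed water 1 was far above the other water array. Bbox1, the last enzyme of carnitine synthesis, was at 8.17 and 8.04 in water and at 7.06 to 7.53 in the extract arrays (-0.86, SE 0.21). Zfp521 (13.75) and Bbox1 (8.97) were highest of all arrays on stressed water 2, as were the cerebellar gene lists. The part of cerebellar tissue in these differences was not tested.

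Forebrain excitatory markers were moderately higher. Of 16 hippocampal pyramidal genes 13 had a higher mean and 5 were past the threshold, of 14 dentate granule genes 12 and 4, and of 16 cortical excitatory genes 12 and 5, with 0 past it lower in any of the 3 lists. The share of all genes past it higher was 3.07%. The list medians were 0.41, 0.31 and 0.37. Nr4a2 is among the cortical members, and without unstressed water 2 the dentate count was 2; without high-dose RE 2 the hippocampal and cortical counts were 3 each. Epha7, an ephrin receptor, was at 14.80 and 14.70 in water and at 15.46 to 15.68 in the extract arrays (0.78, SE 0.18). Tbr1, a factor of glutamatergic cortical neurons, was at 12.78 and 12.79 in water and at 13.21 to 13.59 in the extract arrays (0.62, SE 0.18). These were the list members that kept the threshold with each array left out. Epha7 was named for a wide gap, which favours keeping it. Prox1, which defines dentate granule cells, was at 10.10 and 9.44 in water and at 10.31 to 11.04 in the extract arrays (0.93, SE 0.24), and Neurod6, a pyramidal factor, was at 12.19 and 11.80 against 12.58 to 13.06 (0.78, SE 0.22). Both lost the threshold without unstressed water 2. Camk2a, the abundant kinase of these neurons, was at 17.54 and 17.50 in water and at 17.77 to 18.11 in the extract arrays, and was not past it. Against the tissue label, hippocampal markers were present, and thalamic, striatal and cerebellar markers varied beside them.

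Lower genes were led by markers of the cerebellum, which is no part of the limbic system. All 19 measured cerebellar granule cell genes had a lower mean and 12 were past the threshold. Of 14 Purkinje cell and Bergmann glia genes 12 were lower and 8 past it, against 2.19% of all genes past it lower. Gabra6, which granule cells use in their GABA-A receptors, was at 14.31 and 8.42 in unstressed water, at 5.48 and 4.69 at the low dose and at 7.64 and 5.14 at the high dose. Cbln3, a secreted cerebellin of the same cells, was at 11.95 and 7.35 in water and at 4.61 to 5.99 in the extract arrays. Pcp2, a Purkinje cell gene, was at 12.87 and 8.84 in water and at 6.99 to 8.64 in the extract arrays. In all 3, unstressed water 1 was far above the other water array. The differences were -5.63 (SE 1.40), -4.55 (SE 1.05) and -3.18 (SE 0.92), and without unstressed water 1 they were -2.68, -2.25 and -1.16, still past the threshold.

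The cerebellar lists moved with that array as a whole. The mean of the granule cell list was 1.57 on unstressed water 1 and -0.40 on unstressed water 2, and ran from -0.94 to -0.70 on the extract arrays. The list median was -1.04 with all arrays, -0.30 without unstressed water 1 and -1.59 without unstressed water 2, and the number past the threshold 12, 5 and 15. The Purkinje cell list went from -1.02 to -0.48 and to -1.67 in the same order, with 8, 3 and 10 members past the threshold. Both lists were highest on an array outside the comparison, stressed water 2, at 3.19 and 2.74. Cbln1, Car8, Ppp1r17, Dao and Fat2 lost the threshold without unstressed water 1. Without unstressed water 2, leaving unstressed water 1 as the only control, 6 rows passed an adjusted p of 0.05 in limma, all lower: Car8, Pcp2, Cbln1, Cbln3, Arhgef33 and an unnamed row. The part of cerebellar tissue in these differences was not tested.

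Calb2, Calb1 and Cnr1, named for the width of their gaps, were lower on every extract array. Calb2 (calretinin) was at 12.92 and 12.40 in water and at 11.64, 11.55, 11.66 and 11.36 in the extract arrays (-1.11, SE 0.22). Calb1 (calbindin) was at 13.96 and 13.19 in water and at 12.39, 12.38, 12.45 and 12.57 in the extract arrays (-1.13, SE 0.24). Cnr1, the cannabinoid receptor of axon terminals, was at 14.01 and 13.76 in water and at 13.12, 12.99, 12.90 and 12.70 in the extract arrays (-0.96, SE 0.19). The extract arrays were tightly grouped in all of them, and that they did not reach the water arrays follows from the choice by gap. All 3 kept the threshold with each array left out, which the choice by gap also favours. Without unstressed water 1 the differences were -0.85, -0.74 and -0.83. Calb1 and Calb2 also belong to the cerebellar lists, and both were high on stressed water 2, at 15.20 and 14.19. Cnr1 was also highest on that array, at 14.79.

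Other genes with wide gaps on the lower side were Sparc, Angpt1, Cdh7 and Galnt13. All of them were highest of the 8 arrays on stressed water 2, where both cerebellar lists were also highest. They were there at 15.97, 9.58, 11.89 and 13.57, and the part of cerebellar tissue was not tested. Sparc, a matrix protein made by glia and vessels, was at 14.89 and 15.34 in water, at 13.98 and 14.08 at the low dose and at 14.36 and 14.31 at the high dose (-0.93, SE 0.20). Angpt1, a vascular growth factor, was at 9.27 and 9.23 in water and at 8.17 to 8.70 in the extract arrays (-0.86, SE 0.20), and Tek, its receptor, was at 7.45 and 7.27 against 6.18 to 6.98 (-0.67, SE 0.26). Tek lost the threshold when unstressed water 1 or 2, low-dose RE 2 or high-dose RE 1 was left out. Cdh7, a cadherin, was at 11.50 and 10.99 in water and at 9.72, 9.66, 10.31 and 9.71 in the extract arrays (-1.40, SE 0.25), and Galnt13, a neuronal glycosyltransferase, was at 12.58 and 12.15 against 10.60 to 11.47 (-1.21, SE 0.26). Arhgef33 (-2.87), Pax6 (-1.41), Plce1 (-0.72), Eif4e1b (-0.98), Klhl1 (-0.81) and Tmem255a (-1.31) completed the set with the widest gaps. Arhgef33, at 11.19 and 7.25 in water, was highest on stressed water 2 (13.75), as was Plce1 (10.15). Eif4e1b (6.88), Klhl1 (7.23) and Tmem255a (11.86) were not highest on that array. The genes completing the set passed with each array left out, which the choice by gap also favours, but some differences shrank. Without unstressed water 1 Arhgef33 was at -0.90 and Pax6 at -0.84. Pax6 is a member of the cerebellar granule cell list and was at 11.78 on stressed water 2. Tmem255a was at -0.84 without unstressed water 2.

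Striatal and hypothalamic genes followed the other water array. Of 16 striatal projection neuron genes 15 had a lower mean and 8 were past the threshold, against 2.19% of all genes past it lower. Penk, the enkephalin precursor, was at 14.81 and 16.47 in water and at 13.46 to 14.63 in the extract arrays (-1.45, SE 0.47). Drd1, the D1 dopamine receptor, was at 8.94 and 10.54 in water and at 8.06 to 9.19 in the extract arrays (-1.13, SE 0.46). For both, unstressed water 2 was the highest of the 6 arrays. The list median was -1.08 with all arrays, -1.90 without unstressed water 1 and -0.18 without unstressed water 2, where 0 members were past the threshold; 15 were without unstressed water 1, 2 without low-dose RE 2 and 3 without high-dose RE 1. The list mean was 1.43 on unstressed water 2, 0.02 on unstressed water 1 and between -0.48 and 0.14 on the extract arrays.

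Hypothalamic genes had a median of -0.30 over 20 measured members with 1 past the threshold lower, against 2.19% of all genes. Without unstressed water 2 the median was 0.03, and without unstressed water 1 it was -0.65 with 7 members past the threshold. That member was Crh, the hormone that starts the stress axis, at 7.23 and 8.01 in water and at 6.91, 6.85, 6.98 and 6.85 in the extract arrays. Its difference of -0.72 (SE 0.25) became -0.33 without unstressed water 2 and lost the threshold. Avp (vasopressin) was at 5.63 and 8.60 in water and at 5.95 to 6.47 in the extract arrays, with a difference of -0.87 that turned to 0.61 without unstressed water 2. Oxt (oxytocin) was at 6.55 and 7.70 in water and at 6.24 to 6.74 in the extract arrays, and 0 of 12 measured genes of the oxytocin and vasopressin list were past the threshold; without unstressed water 1 or without high-dose RE 1 the number was 3. The part of striatal or hypothalamic tissue in these differences was not tested.

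**Figure D4:**
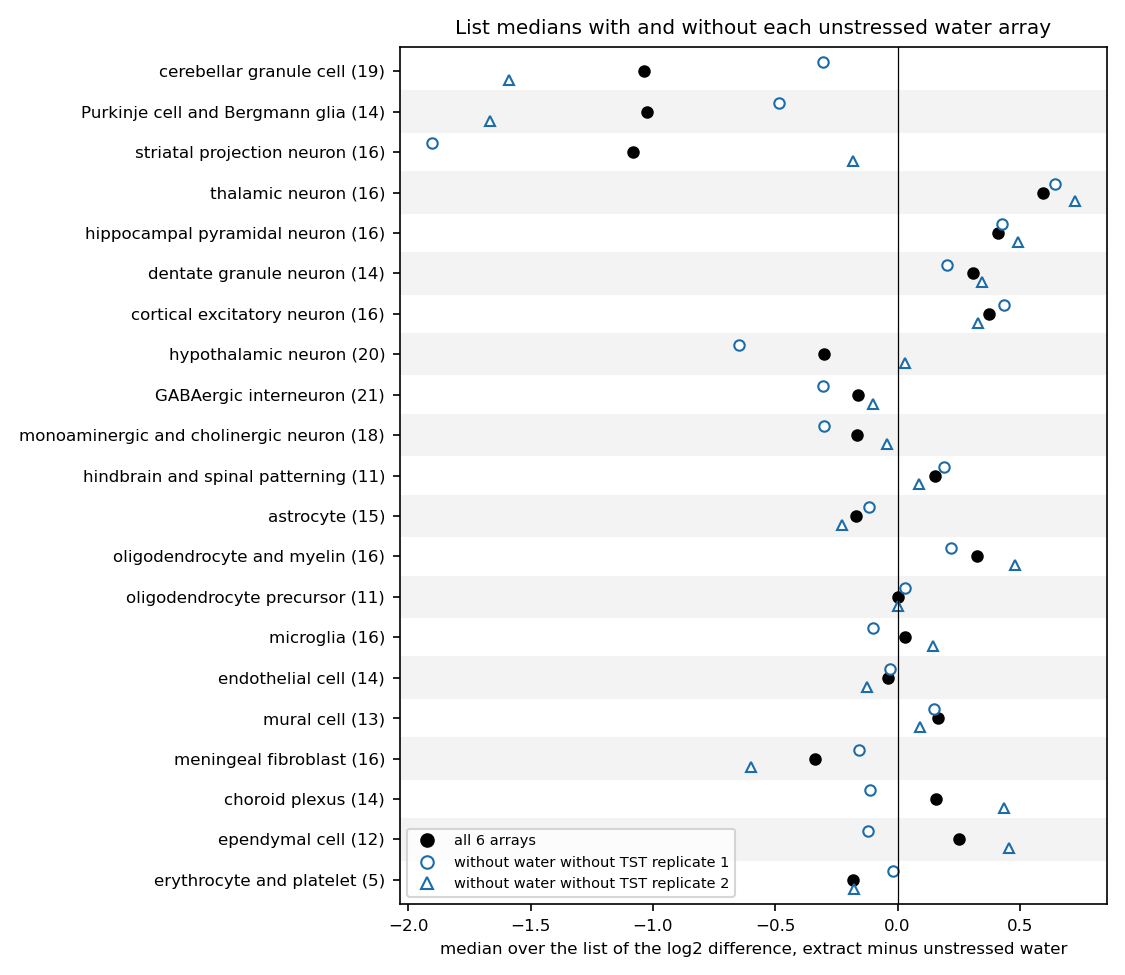
For each cell type or region list, with its number of measured genes, the horizontal axis gives the median log2 difference of extract minus unstressed water with all 6 arrays (filled) and without either water array (open). The cerebellar medians shrink without water 1 and the striatal median without water 2, while the thalamic median lies between 0.60 and 0.72 in all 3.

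Glial, vascular and barrier lists lay on both sides. Of 16 oligodendrocyte and myelin genes 15 had a higher mean and 4 were past the threshold, against 3.07% of all genes past it higher. The list median was 0.32. Between 1 and 2 were past it without either water array, either high-dose array or low-dose RE 1, and 6 without low-dose RE 2. Opalin, a myelin protein, was at 10.86 and 11.22 in water and at 11.52 to 12.01 in the extract arrays (0.73, SE 0.23), and lost the threshold without unstressed water 1. Mbp, the main myelin basic protein, was at 17.39 and 17.52 in water and overlapped the extract arrays at 17.29 to 17.82. Of 16 meningeal fibroblast genes 14 were lower and 3 past the threshold, against 2.19% of all genes past it lower. The list median was -0.34, and -0.16 without unstressed water 1. The number past it was then 0, against 7 without unstressed water 2 and 1 without high-dose RE 2. Ogn, a matrix proteoglycan of the meninges, was at 10.81 and 9.75 in water and at 8.73 to 9.63 in the extract arrays (-1.20, SE 0.35), and Ptgds, the meningeal prostaglandin D synthase, was at 16.76 and 15.76 against 14.22 to 15.93 (-1.11, SE 0.41). Both lost the threshold without unstressed water 1. Astrocyte (1 of 15 past the threshold), microglia (1 of 16), endothelial (1 of 14) and mural lists (0 of 13) had medians between -0.17 and 0.17. Over all genes 5.27% were past it in either direction, and these counts lie near that share. With 1 array left out, the astrocyte count ran from 0 without either high-dose array to 4 without low-dose RE 1. The microglia and endothelial counts ran from 0 to 2, both 2 without low-dose RE 1, and the mural count was 2 without unstressed water 2. Gfap, the astrocyte filament, was at 10.80 and 10.75 in water and at 10.39 to 10.86 in the extract arrays, and Aif1, the microglial marker, was at 7.85 and 8.66 against 7.51 to 9.26.

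Among stress-response lists the heat shock chaperones had members past the threshold on both sides, with a list median of 0.10. They numbered 4 of 16 higher and 2 lower, against 3.07% and 2.19% of all genes. Together they were 3 without unstressed water 1 and 2 without unstressed water 2. Dnajb1, the co-chaperone that serves Hsp70, was at 10.31 and 10.21 in water, at 11.01 and 10.83 at the low dose and at 11.51 and 11.90 at the high dose. All extract arrays were above water and the high-dose arrays above the low-dose arrays; the difference was 1.05 (SE 0.20), between 0.95 and 1.15 with left-out arrays. Hsph1, an Hsp70 exchange factor, was at 13.73 and 14.16 in water, at 14.52 and 14.35 at the low dose and at 14.73 and 15.22 at the high dose (0.76, SE 0.23), and lost the threshold without unstressed water 1. Hspa1a was at 8.43 and 7.84 in water, at 8.25 and 8.47 at the low dose and at 8.93 and 9.93 at the high dose (0.76, SE 0.31). Hspa1b, a near-identical copy from which it may not be separable, was at 8.44 and 8.27, then 8.56 and 8.84, then 9.02 and 9.68 (0.67, SE 0.24). The threshold was lost for both Hsp70 genes without high-dose RE 2 and without unstressed water 2. Hspb8 (-0.65) and Dnajb4 (-0.555) were past the threshold lower, and both lost it without unstressed water 2.

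Glucocorticoid receptors and targets had 2 of 21 members past the threshold, both higher, and a median of 0.21; 0 were past it without unstressed water 2 or high-dose RE 2, and 1 without high-dose RE 1. The share of all genes past it higher was 3.07%. The 2 members were Nfkbia, an inhibitor of NF-kB (0.66, SE 0.23), and Per1, which is also a clock gene. Per1 was at 9.07 and 9.0 in water and at 9.45, 9.41, 9.52 and 9.58 in the extract arrays (0.46, SE 0.18); the arrays did not overlap, but the threshold was lost without either water or either high-dose array. Fkbp5, the receptor's co-chaperone and a standard target, was at 11.78 and 11.98 in water and spread from 11.47 to 12.19 in the extract arrays, and the groups overlapped. Nr3c1, the receptor itself, was at 9.28 and 9.18 against 9.15 to 9.75 (0.18, SE 0.22), and Tsc22d3 (GILZ), a further target, at 11.79 and 11.63 against 11.77 to 12.01 (0.20, SE 0.19). Among 19 clock genes 3 were past the threshold, Rorb, Per1 and Nr1d1, with a median of 0.22, and 1 or 0 were without either water array or without high-dose RE 2. Nr1d1, the repressor REV-ERB alpha, was at 11.84 and 11.61 in water, at 12.47 and 12.23 at the low dose and at 11.95 and 12.45 at the high dose (0.55, SE 0.22).

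In the list of opioid and other neuropeptides, 2 of 23 were past the threshold higher (Vip and Cck), against 3.07% of all genes, and 3 lower (Penk, Tac1 and Crh), against 2.19%; 10 in all were past it without unstressed water 1 and 2 without high-dose RE 2. Cck, a peptide of cortical neurons and interneurons, was at 14.09 and 14.55 in water and at 14.76 to 15.26 in the extract arrays (0.72, SE 0.23), and lost the threshold without unstressed water 1 or high-dose RE 2. Th, the enzyme that limits catecholamine synthesis, was at 7.18 and 8.65 in water and at 6.42, 6.75, 8.38 and 7.09 in the extract arrays. Tph2 (0.17) and Slc6a4 (0.025), the serotonin synthesis enzyme and transporter, and Maoa (-0.35), which degrades monoamines, were not past the threshold, and Tph2 was at -0.21 without unstressed water 1. Neither were Ache (-0.41) and Bche (0.36), which break down acetylcholine; Bche was at -0.073 without unstressed water 2. Drd5, a D1-like dopamine receptor, was past it (0.66, SE 0.21) but lost it without unstressed water 1. Of the glutamate receptor genes Grin2a was higher (0.70, SE 0.21), and lost the threshold without unstressed water 2. Grik2 was lower (-0.52, SE 0.19), and lost it without unstressed water 1 or either high-dose array. Like the cerebellar lists, Grik2 was highest of all arrays on stressed water 2, at 15.03. Vgf, a peptide precursor induced by neurotrophins, was at 8.67 and 9.72 in water and at 10.10 to 10.49 in the extract arrays (1.05, SE 0.30), and lost the threshold without unstressed water 1.

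Protein-folding, antioxidant and metabolic lists had few members past the threshold. Over all genes 5.27% were past it in either direction. At that share few members would be past it in lists of this size, so the counts say little about these lists. The unfolded protein response (18 measured), the Nrf2 antioxidant response (21), cholesterol synthesis and uptake (18) and cytosolic ribosomal proteins (34) had 0 each, and oxidative phosphorylation had 1 of 45, Ndufv2 (-0.48). Their medians ran from -0.14 to 0.01. With 1 array left out, the Nrf2 and oxidative phosphorylation counts reached 2 without low-dose RE 1, and the other counts 1 at most. In 7 of the 18 unfolded protein response genes all 4 extract arrays lay below both water arrays, against 6.21% of all genes. The mean of that list was 0.11 and 0.12 on the water arrays and -0.058 to 0.061 on the extract arrays, and the list median of -0.14 was the lowest of these lists. Hmox1, haem oxygenase, was at 6.67 and 6.53 in water and at 6.25 to 6.69 in the extract arrays. Nqo1, the quinone reductase, was at 6.41 and 6.66 in water and spread from 5.64 to 7.0 in the extract arrays. Both are Nrf2 targets, and in both the groups overlapped. Cytokines and chemokines had 1 of 25 members past the threshold and the interferon response 0 of 20, against 5.27% of all genes in either direction. Without unstressed water 1 or low-dose RE 1 the cytokine count was 3, and without unstressed water 2 the interferon count was 3.

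Each dose was also set against unstressed water by itself. The threshold was passed by 1066 genes for the low dose (5.47%; 3.21% higher and 2.25% lower) and by 743 for the high dose (3.81%; 2.18% higher and 1.63% lower), and 306 genes were past it in both and in the pooled comparison; the water arrays are common to all 3. Thalamic genes had a median of 0.675 at the low dose and 0.535 at the high dose, cerebellar granule genes -0.99 and -1.085, and immediate early genes 0.265 and 0.43. Tested directly, high minus low dose put 545 genes past the threshold (2.79%; 1.35% higher and 1.45% lower) and 0 at an adjusted p of 0.05, with a lowest adjusted p of 0.660 in limma.

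Some activity and stress genes were higher at the high dose than at the low dose, without passing the adjustment. Others of these kinds were not past the threshold between doses: Egr1 (0.23), Nr4a1 (0.215), Nr4a3 (0.335), Bdnf (-0.235), Per1 (0.12) and Fkbp5 (-0.265). Sgk1, a kinase induced by glucocorticoids, was at 10.92 and 10.58 in water, at 10.60 and 10.65 at the low dose and at 11.71 and 11.81 at the high dose. The low-dose arrays overlapped water and both high-dose arrays lay above all others, with a dose difference of 1.14 and an unadjusted limma p of 0.00096. The pooled difference from water was 0.44 (SE 0.19) and not past the threshold. The dose difference was 1.07 for Fos (unadjusted limma p 0.012), 1.07 for Hspa1a (0.018) and 0.79 for Dnajb1 (0.0098). Fos (9.60), Hspa1a (9.93) and Dnajb1 (11.90) were each highest on high-dose RE 2, and their dose differences without that array are not given. C1ql1, a gene of oligodendrocyte precursors and some neurons, was at 9.92 and 10.15 in water, at 8.51 and 9.09 at the low dose and at 9.79 and 9.27 at the high dose, a dose difference of 0.73 (unadjusted limma p 0.035). For Tcf7l2 it was -0.18 and for Calb2 -0.09, neither past the threshold.

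**Figure D5:**
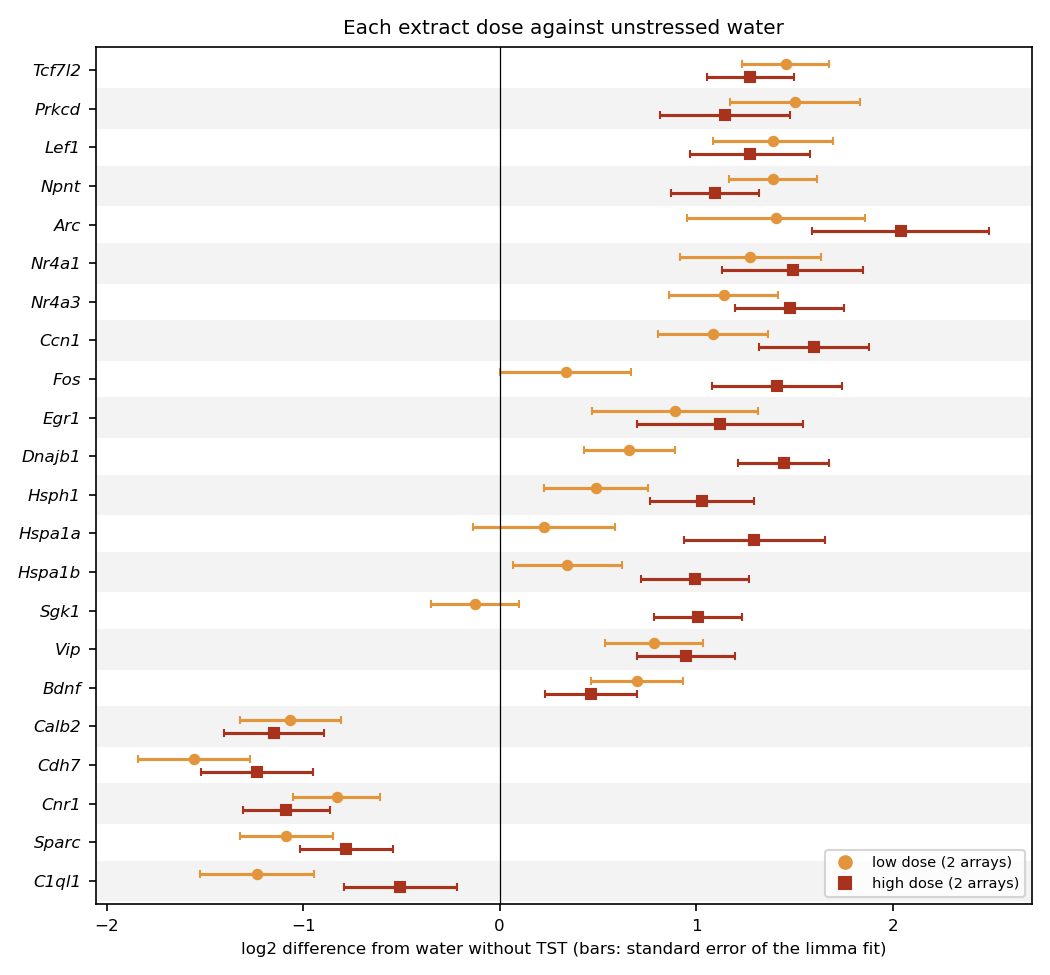
Points give the log2 difference of each dose from water without TST and bars its standard error in the limma fit, with 2 arrays per group and the same water arrays for both doses. Thalamic genes and Calb2 lie close together for the 2 doses, while Fos, Dnajb1, Hspa1a, Hspa1b and Sgk1 lie further right at the high dose.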

How the data were processed

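Brain RNA samples were each hybridised to a Clariom S array. The authors used Transcriptome Analysis Console 4.0.1 to normalize them by RMA (robust multichip average), per the submitters' processing notes. Their values were used on the log2 scale as deposited (2 decimals). The lowest is 2.76 and the highest 19.79, and 1359 exceed 16, the limit of a 16-bit scanner, so the scale may be stretched. Precision is limited by the number of arrays. The platform annotation named 19572 of 22206 rows with 1 symbol, 0 with several and 2634 with none; a gene's row is the one with the highest mean over the 8 arrays. Coordinates come only from the RefSeq promoter table.

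Group means of 3 groups were fitted to 6 arrays with limma 3.58.1 in R 4.3.3 (lmFit, eBayes, two-sided, Benjamini-Hochberg over all rows), with 3 residual and 5.03 prior degrees of freedom and a median standard error of 0.222. On simulated data with the same design, log2 shifts of 1.5 in 100 of 22206 rows were found in 46% at an adjusted p of 0.05 and in 95% at the study's threshold, and shifts of 3 in 92% and 100%. Of unchanged simulated rows 5.41% had p below 0.05. The simulated noise was independent between rows, whereas marker genes moved together by array in the data, so these rates may not hold for them.

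Named genes were the 15 per direction with the widest gap between extract and water arrays among genes past the study's threshold. To these were added the 6 per direction with the largest difference, and up to 4 members per list and direction past the threshold. A further 26 genes were given whatever their values. For the choices by gap and by difference, the higher of a gene's extract and water means had to exceed the median of all values (7.47). A gene could thus enter through its higher side alone, as did Lef1 (water mean 7.13) and Cbln3 (extract mean 5.1). Predicted loci, chemosensory receptors and small RNAs were left out. Other list members are given as examples. The comparison, the genes and the 45 lists (22 of cell types or regions, 23 of pathways) were chosen with earlier results of these data known, and lists were not tested. Alternatives were a replicate block, 2 group means, a fit of all 8 arrays, a trended robust prior, quantile normalization, a table without its dimmest 25% of rows, the study's one-way analysis of variance, and leaving out each array in turn; the remaining array of that group is then assumed to vary like the other groups.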

Additional observations from a re-analysis of the deposited data

Results flagged for a closer look

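Over the 4 extract arrays, 117 genes and 45 lists were searched for an array far from the other 3, and 9 were found (5 genes and 4 lists); chance flags about 1 in 20 such sets of values. Arc was at 11.43 on high-dose RE 2 and at 9.83 to 10.03 on the others. Cdh7 was at 10.31 on high-dose RE 1 against 9.66 to 9.72, Plce1 at 7.94 on the same array against 8.15 to 8.19, and Kcne2, a choroid plexus channel subunit, at 8.17 there against 8.31 to 8.32. Ndufv2 was at 13.76 on low-dose RE 2 against 14.05 to 14.10.

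For lists, the value is the mean over the genes after each was centred on its 8 arrays. Thalamic genes were at 0.64 on low-dose RE 1 against 0.27 to 0.32, and immediate early genes at 0.58 on high-dose RE 2 against 0.16 to 0.18. Choroid plexus genes were at 0.72 on low-dose RE 2 against -0.021 to 0.070, and meningeal genes at 0.030 on high-dose RE 1 against -0.32 to -0.27.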

How the results depend on the processing

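Rows, not genes, are counted here. For both doses together, 1193 rows passed the study's threshold and 0 an adjusted p of 0.05. A fit of all 8 arrays, which adds stressed water, gave 641 (low dose 700 instead of 1234, high dose 437 instead of 858). With a trended robust prior 1 row, Tcf7l2, passed the adjustment for both doses and 1 for the low dose. Leaving out each array in turn gave 734 to 2286 rows for both doses, 835 to 2754 for the low dose, 483 to 1320 for the high dose and 378 to 2041 instead of 637 for the dose difference. At an adjusted p of 0.05 the same fits gave 0 to 6, 0 to 8, 0 to 5 and 0 to 8. The 6 for both doses and the 5 for the high dose came without unstressed water 2 and were all lower (Car8, Cbln1, Cbln3, Arhgef33 and an unnamed row in both, and Pcp2 for both doses). The 8 for the low dose and for the dose difference came without low-dose RE 1 and were Cwc22 and unnamed rows high on low-dose RE 2 alone; the cause was not tested. Other settings stayed within 1.5 times: 1383 with 2 group means, 1335 with the trended prior, 1004 without the dimmest rows, 1435 after quantile normalization and 1163 with the study's analysis of variance, of which 0 passed Benjamini-Hochberg adjustment.

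The replicate block gave 1050 rows for both doses and 0 after adjustment. Same-numbered samples share only a number: correlations of their deviations were 0.032, -0.064 and -0.099. Of 99 named genes past the threshold, 38 kept it with each array left out, 91 with the block, 98 after quantile normalization, 86 with the trended prior, 63 with the analysis of variance and 44 in the fit of all 8 arrays. The sign of the difference of these 99 was the same in all settings run. They were chosen for passing on the same arrays that the settings reuse, so keeping the sign or the threshold is favoured by that choice. Of the named genes not past the threshold, Avp, Fkbp5, Tph2, Slc6a4, Aif1, Mbp, Ttr, Nqo1 and Bche changed sign with at least 1 array left out; Avp (0.61) and Bche (-0.073) did so without unstressed water 2.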

Other observations

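After the values of Pou4f1 had been seen, 12 genes known from the habenula, a small nucleus beside the thalamus that restrains dopamine and serotonin neurons, were looked up. Pou4f1 is 1 of them. Of the other 11, 9 had a higher mean in the extract arrays, 4 were past the study's threshold higher (3.07% of all genes) and 0 lower, with a median difference of 0.47. Pou4f1 kept the threshold with each array left out, which its choice by gap favours, and the other habenular genes past it did not. Nwd2, known as a habenular marker, was at 10.44 and 10.54 in unstressed water and at 11.21, 10.93, 11.26 and 11.05 in the extract arrays. Gng8, a G-protein subunit, was at 6.29 and 6.10 in water and at 7.19, 6.85, 6.60 and 6.85. Chrnb4, a nicotinic receptor subunit, was at 5.83 and 5.67 in water and at 6.72, 6.56, 6.23 and 5.98. All 4 extract arrays lay above both water arrays in these 3 genes, as in 8.93% of all genes. The fourth gene past the threshold was Lrrc55 (0.53). On the arrays of stressed water Chrnb4 was at 6.78 and 6.72. Gpr151, a receptor that is nearly restricted to the habenula, was at 6.26 and 5.83 in water and at 6.44, 6.44, 6.18 and 6.46 in the extract arrays, and the groups overlapped.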
